A study of Homo sapiens with 8 samples.

Results

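The genes described here encode deubiquitinases of the USP and OTU families in DLD-1 cells, a line of human colorectal adenocarcinoma. They were chosen by name: genes whose current symbol is USP followed by a number (USP22 was left out), genes whose symbol starts with OTUD or OTUB, and YOD1. Pseudogenes and antisense genes were left out. Of 61 such genes in the RefSeq gene table, 55 were measured among 19752 genes on the array, 45 of them USP genes and 10 OTU genes with YOD1 included. The other 6 had no probe set of their own: USP15 shared its 4 probe sets with MIR6125, and OTUD6A, USP6, USP10, USP32 and USP50 were not named by the probe set annotation. No copy of the multicopy USP17L genes was measured.

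Both groups were DLD-1 cells treated with the same Lipofectamine lipid reagent, and both were grown in the same high-glucose medium with serum. In 4 cultures a miR-143 duplex was delivered at 50 nM, and 4 cultures were mock transfected without a duplex. Total RNA was taken 24 h later and each culture was hybridised to its own Affymetrix HG-U133 Plus 2.0 array. No array of a control duplex was used here, so an effect of miR-143 cannot be told apart from an effect of any small duplex RNA. Values are log2 intensities that the authors summarised with RMA per probe set, a set of short probes for a transcript. A gene is represented by its probe set of highest mean unless a sentence says otherwise. For each gene the groups were tested with limma, a linear model that shares information on the spread between genes. A gene is called where its p adjusted over all genes is under 0.05. The comparison was made without a block and with the replicate number, 1 to 4 in both groups, as a block that compares same-numbered arrays.

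Ubiquitin is joined to proteins as single units or as chains, and the kind of chain decides whether a protein is sent to the proteasome, is sorted to the lysosome or takes part in signalling. Deubiquitinases cut ubiquitin off again. The USP enzymes are the largest family of these cysteine proteases in human cells, and the OTU enzymes are a smaller family whose members often prefer certain chain types. YOD1 is an OTU enzyme that works with the p97 ATPase, which pulls ubiquitinated proteins out of the endoplasmic reticulum membrane.

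The mature miR-143 strand is shown because its addition is what separates the groups. It is encoded on the plus strand at chr5:149428978-149428998 of GRCh38.p14, is 21 bases long, and is printed from RefSeq with its seed, bases 2 to 8, in capitals.
hsa-miR-143-3p: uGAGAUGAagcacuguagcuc
Sites for this seed in the transcripts of the deubiquitinase genes were not analysed here.

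YOD1 stood out among the 55 genes. Its brighter probe set had log2 values of 10.47, 10.42, 10.48 and 10.56 on the miR-143 arrays and of 9.88, 9.68, 9.58 and 9.94 on the mock arrays, replicates 1 to 4 in order. The lowest miR-143 array lay well above the highest mock array, so the groups did not overlap, and each miR-143 array was above the mock array of its number. The means were 10.48 ± 0.06 (SD, n = 4) and 9.77 ± 0.17 (SD, n = 4), a log2 fold change of 0.71 with a standard error of 0.084, or 1.64-fold. The 95% interval ran from 0.53 to 0.90 on the log2 scale. In RNA from a whole culture, more cells with the transcript and more transcript per cell cannot be told apart.

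YOD1 had the lowest p-value of all 19752 genes in the comparison without a block, and 1 gene on the array had a larger positive log2 fold change. The members, YOD1 included, were chosen with earlier results of these data known, so this rank is a description only. Its adjusted p from limma was nevertheless 0.126, above the threshold of 0.05. With the replicate number as a block the adjusted p from limma was 0.000386 and YOD1 was called higher. An exact permutation test of the 8 arrays gave p = 0.0286, two-sided, the smallest p that 4 arrays against 4 allow. Any gene whose groups do not overlap gets this value, so it adds nothing to the lack of overlap. The differences within the numbered pairs were 0.59, 0.75, 0.90 and 0.62, higher in 4 of 4.

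The other YOD1 probe set was dimmer. Most of its values lay between 6.70 and 7.61, the range of leukocyte and endothelium markers used below as a rough guide to background. Its log2 values were 7.53, 7.63, 7.46 and 7.71 on the miR-143 arrays and 7.27, 7.32, 7.26 and 7.46 on the mock arrays. The lowest miR-143 array and the highest mock array were nearly equal, so the groups touched, but every miR-143 array was above the mock array of its number. The log2 fold change was 0.25 with a standard error of 0.071, 1.19-fold. In limma over all 54675 probe sets its adjusted p was 0.99997 without the block and 0.0489 with it, and that of the brighter probe set was 0.0801 and 0.000332. Of all probe sets 0.00183% were called lower and 0.0% higher without the block, and 0.32% lower and 0.086% higher with it. With the 2 probe sets averaged, YOD1 had a log2 fold change of 0.48 and adjusted p from limma of 0.205 without the block and 0.00759 with it.

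**Figure D1:**
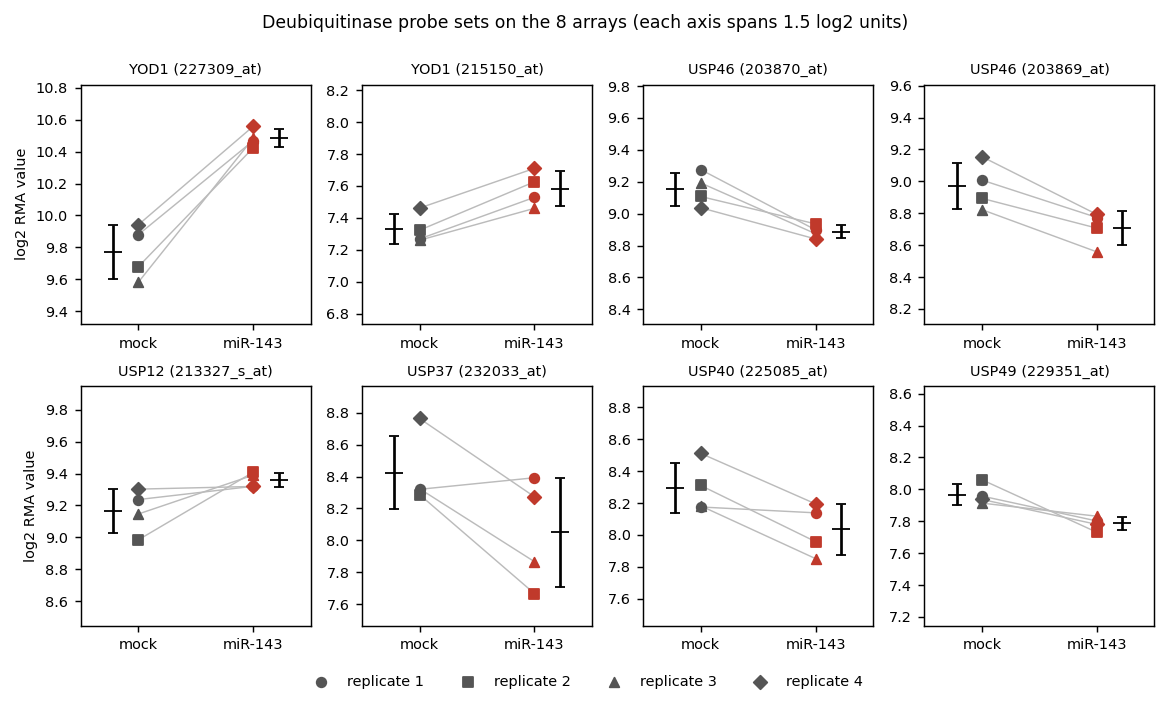
Log2 RMA values (y axis) of 8 probe sets on the 4 mock arrays (grey) and the 4 miR-143 arrays (red), where symbols mark replicate numbers, lines join arrays of the same number, and bars beside the points give the mean ± SD (n = 4). Each y axis spans 1.5 log2 units; the brighter YOD1 probe set lies between 9.58 and 9.94 on the mock arrays and between 10.42 and 10.56 on the miR-143 arrays, and the brightest of USP46 between 9.04 and 9.28 and between 8.84 and 8.94.

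No member passed the threshold without the block in limma, 0 higher and 0 lower, against 0.0% of all genes in each direction. The adjusted p from limma was 0.126 for YOD1, 0.759 for USP46 and 0.9999 for the other 53 members. At an unadjusted p under 0.05 there were 4 members lower (USP46, USP49, USP40 and USP31) and 2 higher (YOD1 and USP12), where 1.7% of all genes were lower and 0.714% higher. With the block 1 member was called higher, YOD1, and 0 lower, where 0.167% of all genes were called higher and 0.623% lower. At an unadjusted p under 0.05 the block gave 7 lower and 4 higher members, beside 6.92% and 2.64% of all genes. The miR-143 and mock arrays did not overlap for 2 lower members, USP46 and USP49, and for 3 higher members, YOD1, USP12 and USP35. This was so for 1.24% of all genes on the lower side and 0.719% on the higher side.

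USP46 and USP12 are close relatives that need the WD40-repeat protein WDR48 for activity, and the activity of both is raised further by WDR20. USP46 read 8.90, 8.94, 8.87 and 8.84 on the miR-143 arrays and 9.28, 9.11, 9.19 and 9.04 on the mock arrays. All miR-143 arrays were below all mock arrays. The log2 fold change was −0.27 with a standard error of 0.064, and the adjusted p from limma with the block was 0.0505, just outside the threshold. An exact permutation test gave p = 0.0286, two-sided, the value that any gene without overlap between the groups gets here. A second USP46 probe set of like brightness had a log2 fold change of −0.26 and again no overlap between the groups. The 2 dimmer USP46 probe sets had log2 fold changes of 0.09 and −0.04. USP46 is on the study's list of putative miR-143 targets. The list holds genes that were lower on these same arrays and have a site for the miR-143 seed in the untranslated region at the end of the transcript. Being on it is therefore not independent evidence of the direction of USP46.

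USP12 pointed the other way. Its log2 values were 9.32, 9.41, 9.39 and 9.32 on the miR-143 arrays and 9.24, 8.98, 9.15 and 9.30 on the mock arrays. The miR-143 arrays were all above the mock arrays, but the fourth mock array lay only just below them. The log2 fold change was 0.19 with a standard error of 0.074, and the unadjusted p from limma was 0.0272. The dimmer USP12 probe set had a log2 fold change of 0.03. Their shared partners differed little: WDR48 had a log2 fold change of −0.04 and WDR20 of −0.03. USP1, the third enzyme bound by WDR48, removes ubiquitin from FANCD2 and PCNA. It had a log2 fold change of −0.11 at its brighter probe set and of −0.25 at the other, and neither was called with or without the block.

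**Figure D2:**
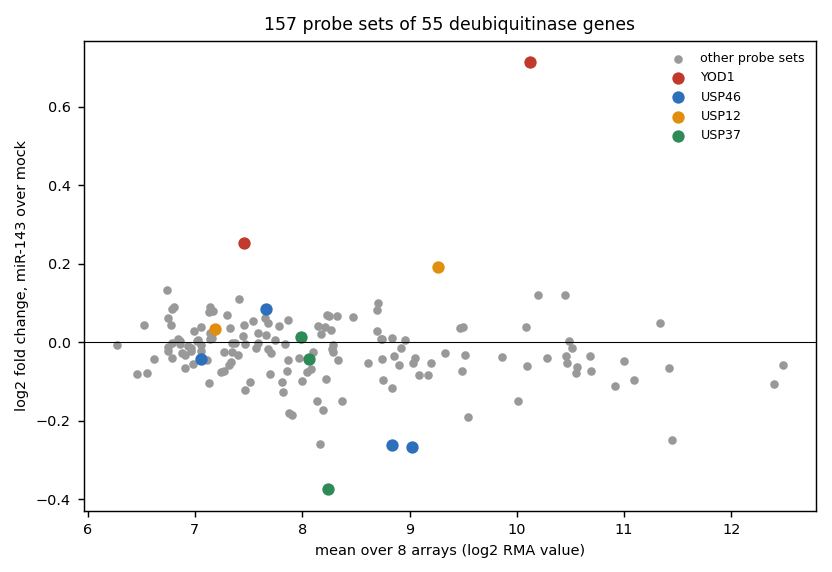
Mean log2 RMA value over the 8 arrays (x axis) and log2 fold change, miR-143 over mock (y axis), of the 157 probe sets of the 55 genes, 1 point each, with the probe sets of 4 genes coloured. The YOD1 probe sets lie at 0.71 and 0.25, USP46 has a pair near −0.26 and a pair near 0, and of the 3 USP37 probe sets 1 lies at −0.37 and the others near 0.

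USP37, which removes ubiquitin from cyclin A, had the most negative log2 fold change of the 55 genes, −0.37 with a standard error of 0.169. It read 8.39, 7.67, 7.87 and 8.27 on the miR-143 arrays and 8.32, 8.29, 8.32 and 8.76 on the mock arrays. The first miR-143 array was above its numbered mock array, the other pairs were lower, and the groups overlapped. The unadjusted p from limma was 0.0519. With the block the adjusted p from limma was 0.127, and without replicate 1 in both groups the log2 fold change was −0.52 and the adjusted p with the block 0.00637. In that setting 0.289% of all genes were called lower and 0.081% higher. The other USP37 probe sets had log2 fold changes of −0.04 and 0.01. Like USP46, USP37 is on the list of putative targets, chosen from these arrays and by seed sites.

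USP40 and USP49 were also among the lower genes. USP40 read 8.14, 7.96, 7.85 and 8.19 on the miR-143 arrays and 8.18, 8.31, 8.18 and 8.51 on the mock arrays. The groups overlapped by a small margin, and the miR-143 array was lower in 4 of 4 pairs. The log2 fold change of USP40 was −0.26, with an unadjusted p from limma of 0.0274. Its second probe set had a log2 fold change of −0.19 with no overlap between the groups.

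USP49 removes ubiquitin from histone H2B. Its log2 values were 7.80, 7.73, 7.83 and 7.78 on the miR-143 arrays and 7.96, 8.06, 7.91 and 7.94 on the mock arrays. The groups did not overlap, although the spread in each was narrow and the log2 fold change only −0.18, with an unadjusted p from limma of 0.00885. The 6 dimmer USP49 probe sets had log2 fold changes between −0.05 and 0.05.

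Negative members are counted by role below, and over all genes 55.6% were negative. The members involved in DNA repair, replication and the cell cycle numbered 11. Of these 7 had a negative log2 fold change and none was called, with a median of −0.05. USP7, which keeps MDM2 and p53 in balance, had a log2 fold change of −0.05, and its mock arrays alone ran from 10.32 to 10.85. USP28, known for stabilising MYC, was at 0.10 and higher in 4 of 4 pairs, with values of 8.75, 8.86, 8.84 and 8.57 on the miR-143 arrays against 8.69, 8.66, 8.78 and 8.48 on the mock arrays. Those ranges overlapped widely. USP29 was at 0.13, higher in 4 of 4 pairs, but its arrays lay between 6.57 and 6.96, in the range of markers of cells absent from this line. Among the 55 genes the standard error was largest for USP13, at 0.180, followed by USP37 and, in this group, USP47 at 0.166.

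Among the members known from NF-kB, TGF-beta, Wnt and other signalling 10 were measured and 6 were negative, with a median of −0.01. USP31, an inhibitor of NF-kB signalling, had a log2 fold change of −0.17 with an unadjusted p from limma of 0.0307 and was lower in 4 of 4 pairs. It read 8.07, 8.21, 8.02 and 8.12 on the miR-143 arrays and 8.27, 8.37, 8.15 and 8.31 on the mock arrays. The groups overlapped only because the third mock array lay below the second miR-143 array. USP25 was at 0.12 and higher in 4 of 4 pairs, but the arrays of each group spread over more than that difference. USP9X, which protects MCL1 from degradation, was at 0.05, with arrays from 11.18 to 11.67 after miR-143 and from 11.04 to 11.63 after mock transfection.

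The 3 enzymes tied to the proteasome or to membranes gave small differences. USP14, which sits on the proteasome, had a log2 fold change of −0.06, USP30 of the outer mitochondrial membrane −0.04, and USP19, whose long form is anchored in the endoplasmic reticulum, 0.07. All 4 measured members with roles at endosomes and membranes were negative, beside 55.6% of all genes, with a median of −0.03 and none called. USP8, which works on endosomes with STAM, was among them at −0.03. The signs depended on the processing: USP8 was negative in 19 of 23 settings and USP33, another of the 4, in 18 of 23. The 4 members linked to RNA, the nucleolus and chromatin (USP36, USP39, USP42 and USP49) were negative too, with a median of −0.06. Apart from USP49 these 3 genes lay between −0.06 and −0.05. USP18, which removes the ubiquitin-like ISG15, was at −0.09, with overlapping groups.

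Of the 10 OTU genes 4 were negative, with a median of 0.02. Apart from YOD1 their log2 fold changes ran from −0.05 for OTUD1 to 0.07 for OTUD7B, an enzyme that prefers K11-linked chains. OTUB1, which cuts K48-linked chains and also holds the conjugating enzyme UBE2N in check, had 9.46, 9.51, 9.52 and 9.58 on the miR-143 arrays and 9.37, 9.45, 9.63 and 9.47 on the mock arrays. These values were intermixed, and the log2 fold change was 0.04 with a 95% interval of −0.11 to 0.18. The log2 fold change of UBE2N was −0.14, and it was not called with or without the block.

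The remaining 10 members lay outside these roles, 5 negative and 5 positive. USP54 was at −0.15 and lower in 4 of 4 pairs, with overlapping groups. USP35 read 7.55 to 7.60 after miR-143 and 7.49 to 7.54 after mock transfection, so its groups did not overlap although the log2 fold change was only 0.05.

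**Figure D3:**
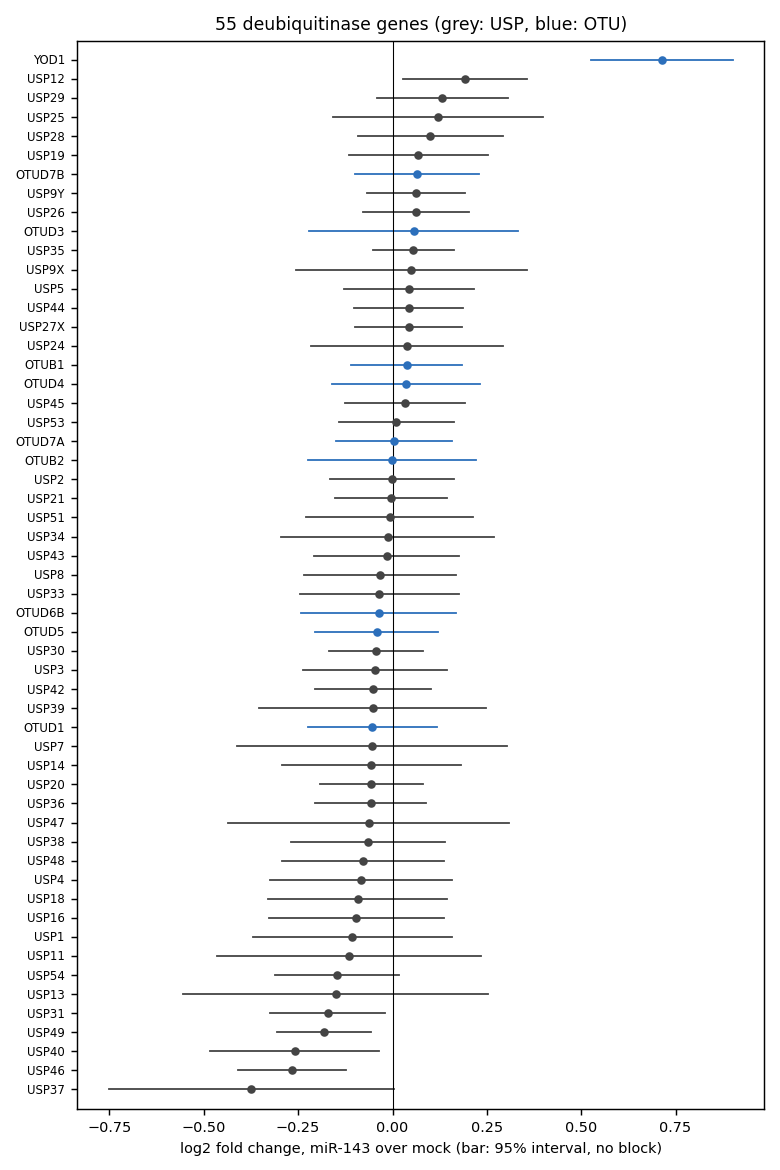
Log2 fold change, miR-143 over mock (x axis), of the 55 genes in order of size, with the 95% interval of the comparison without a block as a bar, USP genes in grey and OTU genes in blue. YOD1 at 0.71 lies apart from the others, which run from −0.37 to 0.19, and the intervals of 53 of the 55 genes lie inside a 1.5-fold change in either direction.

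Over all 55 genes 34 log2 fold changes were negative and 21 positive, and the median was −0.03, with quartiles of −0.06 and 0.04. Over all 19752 genes 55.6% were negative and the median was −0.01. For 41 of the 55 genes the log2 fold change was under 0.1 in size. The 95% interval lay inside a 1.5-fold change in either direction for 53 of the 55, the exceptions being YOD1 and USP37, so for these 53 a larger change lay outside the interval. The sign of the median was not stable: it was 0.01 after cyclic loess normalisation, 0.01 without the third miR-143 array and 0.02 without the fourth mock array. In these settings 23, 27 and 21 of the 55 genes were negative, in that order.

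Replicate 4 stood apart from the other arrays of both groups. It was the highest array of both groups for 27 of the 55 genes, 49.1%, against 36.1% of all genes. Its 2 arrays also had the widest spread of values. The SD over all probe sets was 1.49 (miR-143) and 1.51 (mock), against 1.34 to 1.41 on the other arrays. Bright genes can read high on such arrays, and 46 of the 55 members lay above the median level of all genes. The 49.1% is therefore not a trait of the members apart from their level, which was not tested. Standard errors of the members without the block had a median of 0.085 and with it of 0.055. What the replicate numbers stand for is not given by the labels, so the values with the block rest on a pairing read from the arrays. Leaving replicate 4 out of both groups without a block gave YOD1 a log2 fold change of 0.75 and an adjusted p from limma of 0.00426, where 0.0658% of all genes were called higher and 0.152% lower. This was done for replicate 4 only, the number that stood apart, and for no other number without a block. YOD1 was also the member called higher after cyclic loess, where 0.111% of all genes were called higher and 0.157% lower, and with array weights, where 0.101% were called higher and 0.182% lower. With the block and replicate 2, 3 or 4 left out of both groups it was again the 1 member called higher, beside 0.0557%, 0.0456% and 0.081% of all genes, and 0 members were called lower, beside 0.344%, 0.167% and 0.213%. With the block YOD1 was also called higher after cyclic loess (0.273% of all genes higher, 0.38% lower), on the mean of all probe sets (0.0152% and 0.177%) and on the most variable probe set (0.116% and 0.496%).

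**Figure D4:**
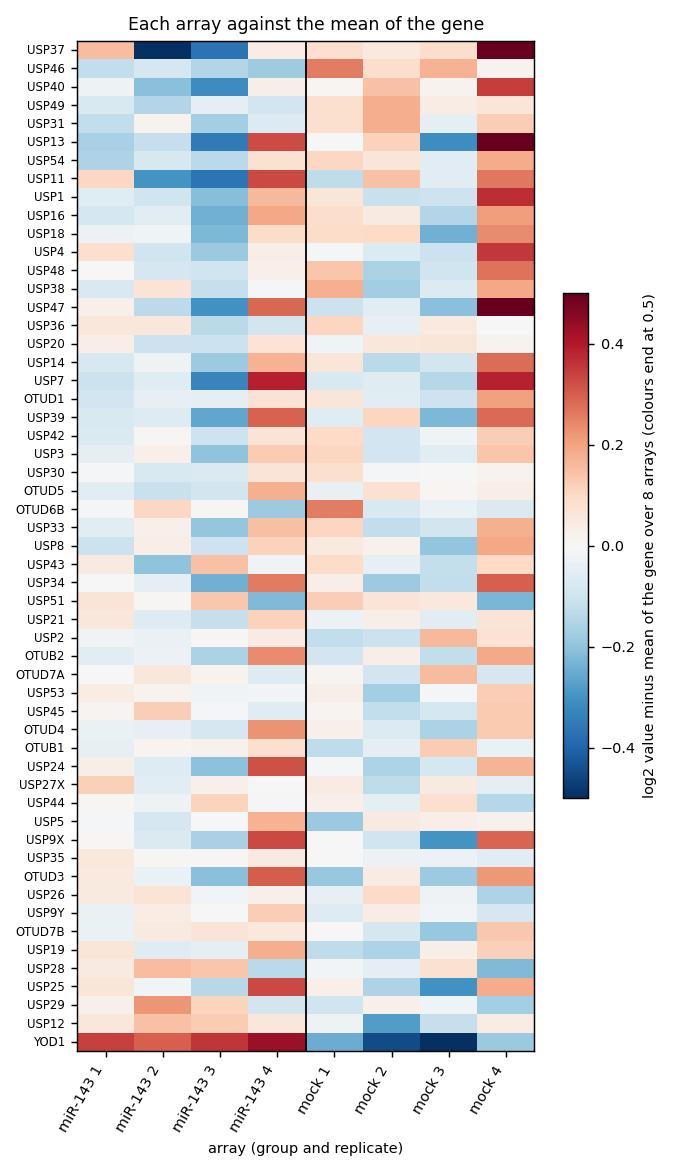
Log2 RMA value of each of the 55 genes on each array (columns) minus the gene's mean over the 8 arrays, in colour from −0.5 (blue) to 0.5 (red), with genes from the most negative to the most positive log2 fold change. YOD1 in the lowest line is red on the miR-143 arrays and blue on the mock arrays, while in 27 of the 55 lines the fourth array is the highest of both groups.

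The arrays carry no detection call. As a rough guide to background, the probe sets of 6 measured markers of leukocytes and endothelium, cells absent from this line, had means of 6.70 to 7.61. By the same measure 10 members were in or below that range (OTUB2, OTUD7A, USP2, USP5, USP20, USP26, USP29, USP35, USP44 and USP51) and 45 above it, while 51.4% of all genes were at or below its upper end. The 4 measured fibroblast markers, also of cells absent from this line, were not used for the range. They had means of 6.86 to 8.14, the highest being COL1A1, so the number of members in the range depends on the markers taken. USP49, with group means of 7.79 and 7.97, lay above the range but below COL1A1. Probe sets differ in brightness for the same amount of RNA, so these means order no transcripts. Of 10 markers of colorectal epithelium, 7 were above the range, EPCAM and KRT18 among them, and LGALS4, CEACAM5 and VIL1 were not. All 10 of these markers had a negative log2 fold change, the lowest −0.32, beside 55.6% of all genes. None of these markers was called with or without the block. Their part in the values of the deubiquitinases was not tested.

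Without the block 0.0% of all genes were called in each direction, and with it 0.167% were called higher and 0.623% lower. Beside these shares, the other deubiquitinase families gave no called gene in either comparison. Among them were 3 UCH enzymes, 4 Josephin enzymes, 10 proteins of the JAMM family, 4 enzymes of the MINDY and ZUP1 kind, 5 OTU proteins with other names and 3 USP-like proteins. Their median log2 fold changes ran from −0.09 for the UCH enzymes to 0.003 for the USP-like proteins. The proteasome-bound UCHL5 was at −0.16 and the endosomal JAMM enzyme STAMBP at −0.15. CYLD and TNFAIP3, 2 well known brakes on NF-kB, were at 0.003 and −0.01.

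Of p97 and its cofactors, the machinery that YOD1 serves, 6 of 7 genes had a negative log2 fold change, beside 55.6% of all genes, and 1 was called lower with the block, beside 0.623% of all genes. That gene was UBXN2B, a p97 cofactor, at 9.04 ± 0.07 (SD, n = 4) after miR-143 and 9.51 ± 0.15 (SD, n = 4) after mock transfection, with no overlap. Its log2 fold change was −0.47, with an adjusted p from limma of 0.198 without the block and 0.00243 with it. UBXN2B is another gene of the list of putative targets, chosen on these arrays and by seed sites. VCP, which encodes p97 itself, was at −0.06, and the other 5 lay between −0.08 and 0.03.

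Of the substrates listed for these enzymes 9 were measured, 6 of them negative, beside 55.6% of all genes. None was called, where with the block 0.167% of all genes were called higher and 0.623% lower. MYC had a log2 fold change of −0.24 and FANCI, monoubiquitinated together with FANCD2 in repair of DNA crosslinks, of −0.25. Both were lower in 4 of 4 pairs with overlapping groups, and their adjusted p from limma with the block was 0.0719 and 0.0611. MCL1 was at 0.14. Of the 4 ubiquitin genes UBB was measured, at −0.14.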

How the data were processed

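Expression was measured in 4 miR-143 and 4 mock cultures, which the study describes as biological replicates. The deposited table holds log2 values, for which the submitters' notes name affy and RMA, and it was used as it stands. Versions are not given in the sources used here. Arrays have no count depth, so their number limits the precision. Of 54675 probe sets 41091 carried a single symbol, 1801 several and 11721 none, and 62 were controls. Symbols were brought to current names through the RefSeq gene table of GRCh38.p14. For each of 19752 genes the probe set of highest mean over the 8 arrays was taken. Groups were compared over all genes with limma 3.58.1 in R 4.3.3 (lmFit and eBayes, two-sided), with Benjamini-Hochberg adjustment and a threshold of 0.05, and the step was tested on simulated data. A single gene was also compared by an exact permutation test of its arrays (scipy 1.17.1).

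The methods name limma and no block, so the comparison without a block came first. The replicate numbers were taken as pairs where same-numbered arrays deviated together from their group means with a correlation above 0.1 for every number. Across genes the correlations were 0.109, 0.166, 0.576 and 0.808, the first close to the limit. Replicates 1 and 2 of the miR-143 group correlated better with another mock array (0.250 and 0.538). The blocked value is printed where it alters a call in any setting or lies close to the threshold.

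Genes named are YOD1, the members on the study's list of putative targets, the 5 lower and 5 higher members of lowest p, members whose groups do not overlap or that were called with the block, and at most 3 genes per list, by p. USP1, USP7, USP9X, USP13, USP47, OTUB1, VCP, MCL1, CYLD and TNFAIP3 are named for their roles or spread, after their values were seen. The members and lists were chosen with earlier results of these data known. Alternatives were other probe set rules, cyclic loess, array weights, filters on low level or low variance, and arrays left out.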

Additional observations from a re-analysis of the deposited data

Results flagged for a closer look

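In 5 of 110 groups of 4 arrays (55 genes in both groups) a single array lay far from the other arrays of its group. Chance alone marks about 1 in 20 groups. The fourth mock array was high for USP37 at 8.76, with the others between 8.29 and 8.32, and for USP7 at 10.85, with the others between 10.32 and 10.41. The fourth miR-143 array was high for OTUD4 at 9.70, with the others between 9.39 and 9.44. The first mock array was high for OTUD6B at 10.12, with the others between 9.78 and 9.83, and low for USP5 at 7.27, with the others between 7.47 and 7.50.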

How the results depend on the processing

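The replicate block, which treats the numbers as pairs, brought the members called higher from 0 to 1 and left YOD1 at 0.71 (log2). YOD1 was likewise the 1 member called higher after cyclic loess (0.76), with array weights (0.71), without replicate 4 in both groups and no block (0.75), and, in settings chosen after seeing the data, with the block after cyclic loess (0.76), on the mean of its probe sets (0.48) and on the most variable probe set by interquartile range (0.71). Its probe sets taken singly with the block, also chosen after seeing the data, were at 0.71 and 0.25. Without a block each single array was left out in turn: YOD1 lay between 0.65 and 0.77, its adjusted p from limma ran from 0.075 to 0.683, and 0 members were called, as were 0.0% of all genes. With the block and each replicate number left out in turn, YOD1 was at 0.76, 0.70, 0.65 and 0.75 with 1 member called higher each time, and 0 to 1 members were called lower, the 1 being USP37 without replicate 1. Of all genes 0.0456% to 0.081% were called higher and 0.167% to 0.344% lower in these settings. The YOD1 call was absent with a filter on the median level (adjusted p 0.106), with an interquartile range above 0.25 (adjusted p 0.247, a filter that left 5 of the 55 genes), and with the most variable probe set and no block (adjusted p 0.0534). YOD1 kept its sign in all 24 settings and passed in 11, and USP46 kept its sign in all 23 settings and passed in 0. The member median ranged from −0.07 to 0.02 when single arrays were left out. The cause of these shifts was not tested. Dim probe sets limit what can be seen for the 10 members in or below the range of the leukocyte and endothelium markers.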

Other observations

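In the gene table YOD1 is flanked by PFKFB2 and C1orf116 on one side and by C4BPB and C4BPA on the other. The log2 fold changes of these neighbours were −0.08 for PFKFB2, −0.27 for C1orf116, −0.17 for C4BPB and 0.02 for C4BPA. None of the 4 had an adjusted p from limma under 0.05, with or without the replicate block. C1orf116 read 8.46 ± 0.17 (SD, n = 4) after miR-143 and 8.73 ± 0.25 (SD, n = 4) after mock transfection, with overlapping groups. It was lower in 4 of 4 pairs, with an adjusted p from limma of 0.0827 with the block. A link between these neighbours and the YOD1 difference was not tested.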
